A study of Homo sapiens with 3 samples.

Results

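UBAP2L and UBAP2 are a pair of related human genes, and the peaks inside them were described in the GoldCLIP-seq lists of HCT116 cells, an established colorectal carcinoma line. The members were all peak summits within the GRCh38 RefSeq bounds of either gene, with summits inside the snoRNA genes that these genes hold counted apart. They came to 52 of 154000 peaks in the RPL22-HaloTag list and 75 of 254413 peaks in the RPL22L1-HaloTag list, in 2 of 59675 genes. GoldCLIP ties a HaloTag fusion protein covalently to beads after crosslinking, so that the RNA bound to it can be washed harshly, recovered and sequenced.

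The cells carried HaloTag only, RPL22-HaloTag or RPL22L1-HaloTag, with 1 library each. All were grown in the same medium with serum, and no treatment is given in the labels. RPL22 belongs to the large subunit of the ribosome, and RPL22L1 is a paralog that can take its place there. The labels do not say whether a fusion replaced the endogenous protein or whether a line was 1 clone. The library of cells with HaloTag only was not analysed here, and no value below is set against its background. The lists are named after the tagged protein, RPL22 or RPL22L1. Without replicates no test between them was made, and the read number behind either is unknown. A rank or a number of peaks describes these libraries and not the conditions, and the strand of a peak was not listed.

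UBAP2L is an RNA-binding protein with a ubiquitin-associated domain and arginine-glycine repeats, which associates with ribosomes and is needed for the assembly of stress granules, the condensates of stalled mRNA and protein that form in stressed cells. UBAP2 is its paralog and shares this domain layout. Like many genes whose products act in translation, both hold snoRNA genes in their bounds. Small nucleolar RNAs (snoRNAs) of this kind are as a rule cut out of the introns of a host transcript and guide the chemical modification of ribosomal or other RNA. Those of the box H/ACA class, whose symbols begin with SNORA, guide pseudouridylation, and those of the box C/D class, whose symbols begin with SNORD, guide ribose methylation.

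UBAP2L lies on chromosome 1 at 154220172 to 154271510 on the plus strand and spans 51339 bases. It holds the box H/ACA gene SNORA58B, and its first bases are shared with LTAP1. UBAP2 lies on chromosome 9 at 33921693 to 34049199 on the minus strand and spans 127507 bases. It holds the box C/D genes SNORD121A and SNORD121B and the pseudogenes OSTCP8 and RNU7-36P. Exon positions were not used here, so no peak is assigned to an exon, an intron or an untranslated region.

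Sequence could be set beside 1 peak, the only summit of either list that fell in a promoter window of these genes. A window runs from 250 bases before to 50 after an annotated start, and the RefSeq table of GRCh38.p14 gave 3 windows for UBAP2L and 5 for UBAP2. In the RPL22L1 list a peak of 36 bases at 34048845 to 34048880 had its summit on base 25 of a UBAP2 transcript, counted from that annotated start. The 30 bases around the summit, chr9:34048848-34048877 on the minus strand, are shown because they carry the RPL22L1 peak closest to the 5′ end of UBAP2; the capital marks the summit base.
UBAP2 start, RPL22L1 peak: gtaacgagcggcggCggcggcagcgggtct
Of these bases 23 were G or C, or 76.7%, against 63.7% for the whole window. The peak had a score of 178 and rank 80329, so it was not among the high peaks of its list. The score is the peak caller's own whole number per peak, from 13 upwards in both lists, and is used only to rank peaks within a list. The RPL22 list had no summit in any of these 8 windows. Over all 35116 windows of the table, 5.73% held an RPL22 summit and 4.84% an RPL22L1 summit.

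The highest peak of UBAP2L lay in SNORA58B (154259727 to 154259862) in both lists. The RPL22 peak covered 154259827 to 154259870, 44 bases, with a score of 7535 and rank 209, or the top 0.136% of the list. The RPL22L1 peak covered 154259812 to 154259870, 59 bases, with a score of 12576 and rank 214, or the top 0.0841%. They shared 44 bases and ended on the same base, 8 bases past the annotated end of the snoRNA. Their summits lay 16 bases apart, on bases 130 and 114 of the 136 counted from the end of lower coordinate. Among snoRNA genes ordered by their highest peak, SNORA58B stood at place 50 of 139 with a summit in the RPL22 list and at place 71 of 188 in the RPL22L1 list. SNORA58 on chromosome 3, a gene of closely related symbol, also held a peak in both lists, with ranks of 264 and 612. The sequences of these genes were not compared, so reads may be divided between them. The handling of reads that match more than 1 place is not stated.

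SNORD121A in UBAP2 (33952764 to 33952854) held a peak in the RPL22L1 list alone. That peak covered 33952782 to 33952814, 33 bases wholly inside the snoRNA, with a score of 58063 and rank 86, or the top 0.0338% of the list. It was the highest peak of UBAP2. The RPL22 list had no summit in SNORD121A, and its nearest peak was a flat one with a score of 41 that began 5040 bases away. Such a difference was common among snoRNA genes. Of the 188 with an RPL22L1 summit, 47.9% had none in the RPL22 list, and of the 39 with an RPL22L1 score at or above that of SNORD121A the number was 20, or 51.3%. SNORD121B (33934297 to 33934375) held no summit in either list, as did most annotated snoRNA genes, since 11.6% of 1199 held an RPL22 summit and 15.7% an RPL22L1 summit. Whether reads match both SNORD121A and SNORD121B was not examined.

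**Figure D1:**
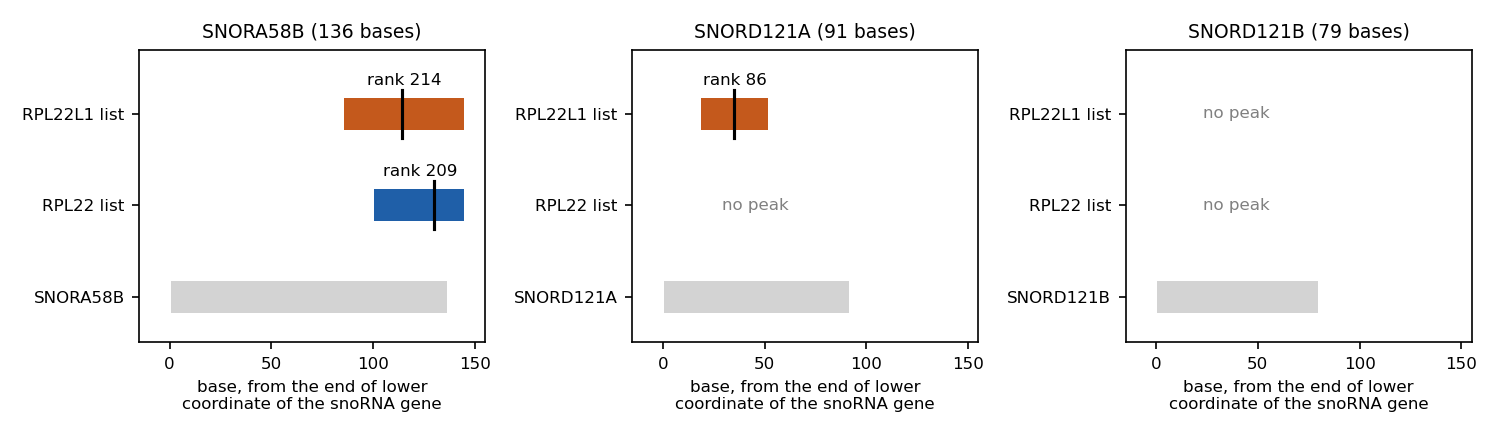
Peaks in the 3 snoRNA genes held by UBAP2L and UBAP2, drawn to scale against the snoRNA gene (grey), with the base counted from the end of lower coordinate on the x axis; blue bars are RPL22 peaks and orange bars RPL22L1 peaks, black lines are summits, and ranks are within each list. SNORA58B carried peaks that ended on the same base in both lists, SNORD121A a peak with rank 86 in the RPL22L1 list alone, and SNORD121B none.

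Outside the snoRNA genes UBAP2L held 17 RPL22 and 37 RPL22L1 summits, and UBAP2 held 34 and 36. Per 100000 peaks of its list, UBAP2L had 11.04 RPL22 and 14.5 RPL22L1 summits, and UBAP2 had 22.1 and 14.2. As counted, UBAP2L thus had more RPL22L1 than RPL22 summits for the length of the lists, and UBAP2 fewer. These numbers are small and carry no interval, and neither difference was tested. When the RPL22L1 list was reduced to its peaks with scores above 98, which left 149971 peaks, UBAP2L held 17 summits in each list and UBAP2 held 34 RPL22 and 27 RPL22L1 summits. Of the 37 RPL22L1 summits in UBAP2L, 20 thus belonged to peaks with scores of 98 or less.

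The log2 ratio of RPL22L1 to RPL22 summits, with 1 added to each number, was 1.08 for UBAP2L and 0.080 for UBAP2. Among 8900 protein-coding genes in which the lists together had 10 or more summits it was above 1 in 30.6% and below -1 in 2.51%, with a median of 0.65. UBAP2L lay at percentile 71.3 of these genes and UBAP2 at percentile 23.8. In lists of equal size the ratios were 0.00 and -0.32, and 6.64% of the genes lay above 1 and 10.3% below -1. Neither gene passed a ratio of 2-fold there.

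Both genes held more summits than most protein-coding genes of like length, meaning that the shorter gene of a pair was at least 0.8 times as long as the other. Among 2198 genes of the length of UBAP2L, itself included, whose medians were 8 RPL22 and 11 RPL22L1 summits, UBAP2L lay at percentiles 87.6 and 91.3. Among 1414 genes of the length of UBAP2, itself included, with medians of 13 and 18, UBAP2 lay at percentiles 90.7 and 71.5. How strongly these genes are transcribed in HCT116 cells was not measured here, and its part in these numbers was not tested. The protein-coding genes of like length with the most similar numbers were SSX2IP and IWS1, each with 17 and 37 summits, and IL6ST with 17 and 38, for UBAP2L. For UBAP2 they were SEC24D with 33 and 37, PAPSS1 with 33 and 35 and DENND5A with 35 and 38. Likeness was the distance in log2 summit number plus 1 over 2 libraries, which many genes can share.

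**Figure D2:**
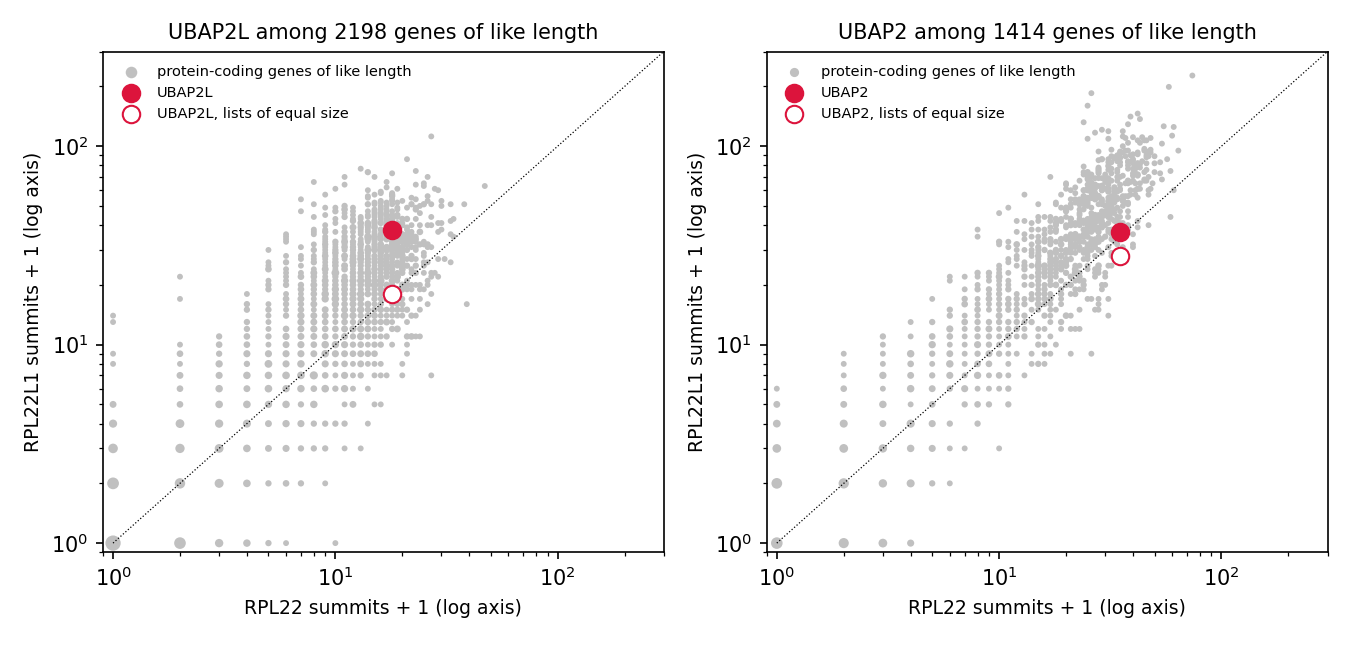
Number of summits plus 1 in the RPL22 list (x, log axis) and in the RPL22L1 list (y, log axis) for protein-coding genes of like length to UBAP2L (left, 2198 genes) and to UBAP2 (right, 1414 genes), each with the named gene included; larger grey points stand for more genes, red points for the named gene, open red points for lists of equal size, and the dotted line for equal numbers. UBAP2L moved from 37 to 17 RPL22L1 summits in lists of equal size and UBAP2 from 36 to 27.

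Most peaks of both lists were flat, a term for peaks of exactly 30 bases whose summit is central, and the others are called shaped. Outside snoRNA genes 65% of RPL22 peaks and 78% of RPL22L1 peaks were flat. In UBAP2L 7 of 17 RPL22 peaks were flat, or 41.2%, and 24 of 37 RPL22L1 peaks, or 64.9%. In UBAP2 the flat peaks were 18 of 34, or 52.9%, and 25 of 36, or 69.4%. The share of flat peaks was below that of the whole list in each of these 4 sets. No interval was set on these shares, so a difference from the lists was not tested. Shaped peaks numbered 10 RPL22 and 13 RPL22L1 in UBAP2L, and 16 and 11 in UBAP2. Genes of like length had medians of 2 and 1 shaped peaks for UBAP2L and of 3 and 2 for UBAP2.

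The RPL22 peaks of UBAP2L outside SNORA58B were low. The highest had a score of 119 at 154228644 to 154228679, with rank 15878, so that none of the 17 was in the top 10% of the list. It was followed by scores of 113 at 154243220 to 154243283, 91 at 154227296 to 154227356 and 90 at 154234679 to 154234728. The lowest score was 13, the lowest of the whole list. Without the snoRNA, then, the best place of UBAP2L in the RPL22 list was 10.3% from the top.

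In the RPL22L1 list 6 of the 37 UBAP2L peaks outside SNORA58B were in the top 10%. The highest, with a score of 995 and rank 2169, or the top 0.853%, lay at 154258993 to 154259026. It was a shaped peak of 34 bases, 851 bases from the nearest RPL22 summit, the one in SNORA58B. The next ones had scores of 409 at 154237029 to 154237070, 391 at 154246346 to 154246395 and 357 at 154239798 to 154239842, with ranks of 13178, 14661 and 18539. None of these 4 peaks shared a base with an RPL22 peak. The peak at 154237029 had a flat RPL22 peak with a score of 30 only 20 bases away.

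UBAP2 held 4 RPL22 peaks and 4 RPL22L1 peaks in the top 10% of their lists outside snoRNA genes. Its highest RPL22 peak had a score of 270 and rank 4313, or the top 2.80%, at 33996257 to 33996313. The highest RPL22L1 peak had a score of 596 and rank 6213, or the top 2.44%, at 33996203 to 33996310. These peaks overlapped, so that outside the snoRNA genes the first place in UBAP2 was held by the same site in both lists. The second RPL22 peak, with a score of 220 and rank 5959 at 33998770 to 33998838, had no RPL22L1 partner. The third, with a score of 167 and rank 9272 at 33973065 to 33973098, overlapped the second RPL22L1 peak, with a score of 560 and rank 6905 at 33973069 to 33973126. The RPL22L1 peaks that followed, with scores of 539 at 33963725 to 33963760 and 442 at 33943425 to 33943462, overlapped no RPL22 peak. The RPL22 peaks with scores of 159 at 33927886 to 33927948 and 103 at 33960810 to 33960839 overlapped no RPL22L1 peak. The peak at 33960810 had a flat RPL22L1 peak with a score of 80 only 55 bases away.

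**Figure D3:**
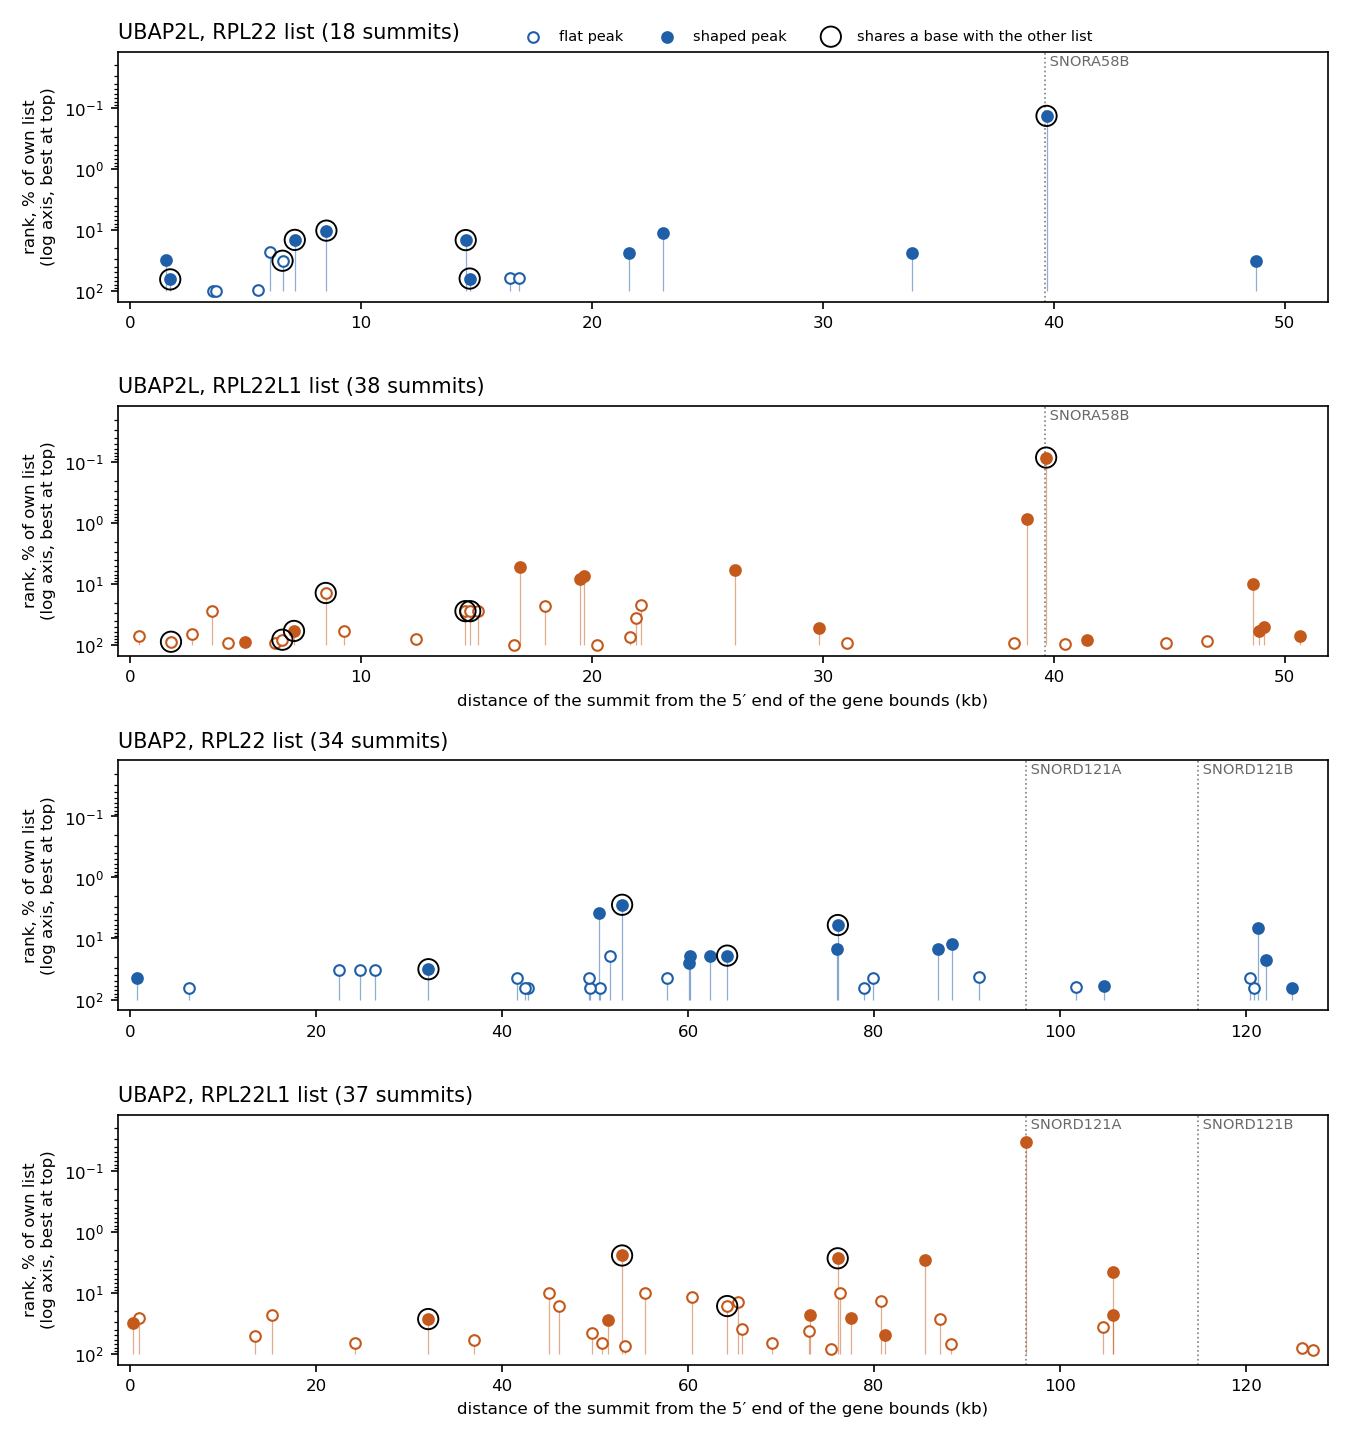
Summits along UBAP2L and UBAP2 in both lists, with the distance from the 5′ end of the gene bounds in kb on the x axis and the rank as a percent of the peak's own list on a log y axis with the highest-scoring peaks at the top; filled points are shaped peaks, open points flat peaks, black rings mark peaks that share a base with the other list, and dotted lines mark snoRNA genes. The peaks in SNORA58B stand above all others of UBAP2L in both lists, and the peak in SNORD121A stands above all others of UBAP2 in the RPL22L1 list.

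Positions shared between the lists were counted next, as peaks with at least 1 base in a peak of the other list and with the snoRNA genes left out. In UBAP2L 6 of 17 RPL22 peaks did so, or 35.3% (exact Clopper-Pearson 95% interval 14.2 to 61.7%, counting error only), against 17.3% of all RPL22 peaks outside snoRNA genes. The same 6 sites made up 16.2% (6.19 to 32.01%) of its 37 RPL22L1 peaks, against 10.6% of that list. In UBAP2 4 of 34 RPL22 peaks were shared, or 11.8% (3.30 to 27.5%), and 4 of 36 RPL22L1 peaks, or 11.1% (3.11 to 26.1%). All 4 intervals held the share of the whole list, so a difference from other peaks was not detectable with these numbers.

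The 6 shared sites of UBAP2L were mostly sites where a shaped RPL22 peak met a flat RPL22L1 peak. Of its 10 shaped RPL22 peaks 5 were shared, or 50%, against 39.1% of all shaped RPL22 peaks, and of the 7 flat ones 1 was, against 5.59%. Of its 13 shaped RPL22L1 peaks 1 was shared, or 7.69% (0.195 to 36.03%), against 26%, and of the 24 flat ones 5 were, against 6.22%. The shared shaped RPL22L1 peak, at 154227217 to 154227328 with a score of 100, met the RPL22 peak of score 91 at 154227296 to 154227356, and at 112 bases it was the widest peak of the gene. Its highest RPL22 peak, at 154228644 to 154228679, shared 13 bases with a flat RPL22L1 peak with a score of 263. With flat peaks left out of both lists the share in UBAP2L was 1 of 10 RPL22 peaks, or 10%, against 24.9% for the list. With an overlap of at least 50% of both peaks it was 11.8% of the RPL22 peaks, against 9.71%, and 5.41% of the RPL22L1 peaks, against 5.88%.

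The remaining UBAP2L pairs were a shaped RPL22 peak at 154221903 to 154221973 with 30 shared bases, a pair of flat peaks near 154226756 with 23, and the RPL22 peaks at 154234679 and 154234859 with 29 and 7. At 2 further places an RPL22 and an RPL22L1 peak lay with 1 base between them. These were the flat RPL22 peak at 154223726 to 154223755 with a score of 13 beside a flat RPL22L1 peak with a score of 192, and the shaped RPL22 peak at 154241749 to 154241783 with a score of 60 beside a flat RPL22L1 peak with a score of 67.

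In UBAP2 the shared sites had shaped RPL22 peaks in all 4 cases and shaped RPL22L1 peaks in 3. The site at 33996257 to 33996313 shared 54 bases, with summits 3 bases apart, and its RPL22L1 peak of 108 bases was the widest of the gene. The site at 33973065 to 33973098 shared 30 bases, with summits 17 bases apart. At 33984975 to 33985004 an RPL22 peak with a score of 72 shared 26 bases with a flat RPL22L1 peak with a score of 244, with summits 3 bases apart. The fourth, at 34017109 to 34017138, paired scores of 49 and 195 over 30 shared bases. The 4 shared of the 16 shaped RPL22 peaks made 25%, against 39.1% of all shaped RPL22 peaks. With flat peaks left out of both lists 3 of 16 RPL22 peaks were shared, or 18.8%, against 24.9% for the list, and 3 of 11 RPL22L1 peaks, or 27.3%, against 23.9%.

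Summits that lay close together without necessarily overlapping were counted as well. In UBAP2L 12 of 17 RPL22 summits lay within 200 bases of an RPL22L1 summit, or 70.6% (44.0 to 89.7%), against 32.1% of the list. The median distance was 56 bases. In the other direction it was 12 of 37, or 32.4% (18.0 to 49.8%), against 21.4%. For UBAP2 the numbers were 7 of 34, or 20.6% (8.70 to 37.9%), with a median distance of 736.5 bases, and 6 of 36, or 16.7% (6.37 to 32.8%). The interval of the RPL22 peaks in UBAP2L lay above the share of the list, and the other 3 intervals held it. These intervals cover counting error only and treat the peaks of a gene as independent. That does not hold, since the RPL22 peaks at 154223726 and 154223861 lay near the same RPL22L1 peak at 154223695. UBAP2L is the shorter gene with 7.21 RPL22L1 summits per 10 kb against 2.82 in UBAP2, and the part of this density in the nearness was not tested. The limit of 200 bases was chosen after the peaks had been seen, so these shares are a description and no difference is drawn from them.

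**Figure D4:**
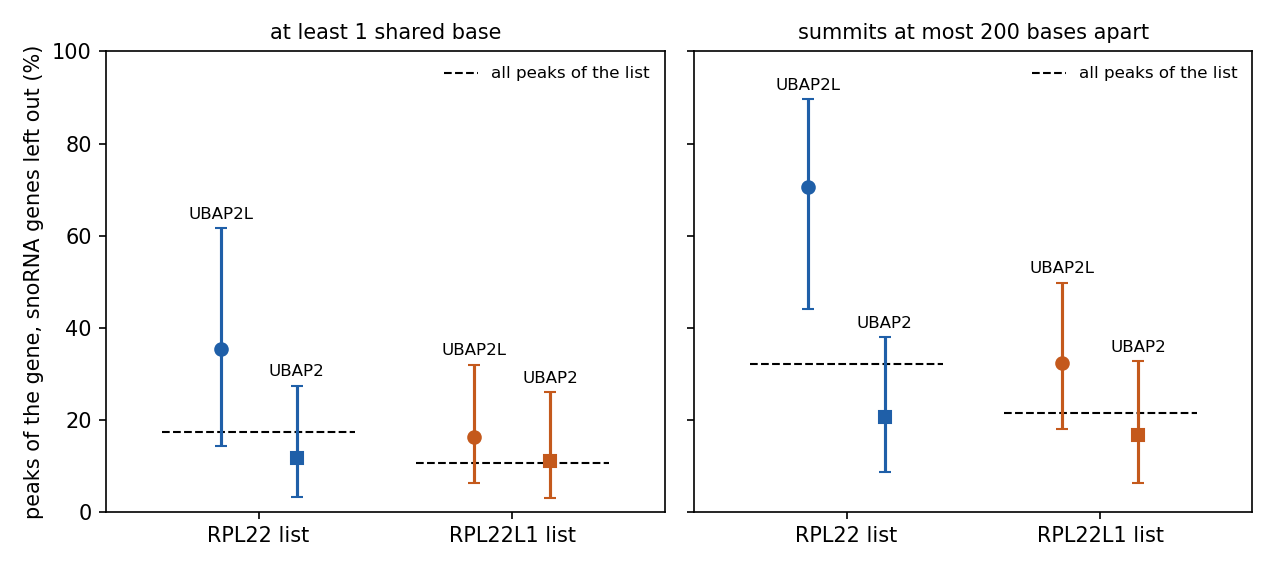
Share of the peaks of UBAP2L (circles) and UBAP2 (squares) outside snoRNA genes that share at least 1 base with the other list (left) or have their summit at most 200 bases from a summit of the other list (right), in percent; error bars are exact Clopper-Pearson 95% intervals and dashed lines give the share of all peaks of the list outside snoRNA genes. The RPL22 peaks of UBAP2L had 35.3% and 70.6%, against 17.3% and 32.1% for the list.

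Along the genes the summits were spread unevenly. With UBAP2L cut into 5 equal stretches from its 5′ end, the RPL22 summits outside SNORA58B numbered 9, 4, 2, 1 and 1, and the RPL22L1 summits 11, 10, 5, 4 and 7. All 6 shared sites lay in the first and second stretches, and the site in SNORA58B was the only position of the other 3 stretches found in both lists. The longest interval without an RPL22 summit ran over 14894 bases, from 33861 to 48755 bases after the 5′ end, when SNORA58B was left out. In that interval lay the RPL22L1 peak with rank 2169. In UBAP2 the 5 stretches held 4, 9, 9, 6 and 6 RPL22 summits and 5, 6, 14, 6 and 5 RPL22L1 summits. Its middle stretch held 3 of the 4 shared sites and 7 of the 16 shaped RPL22 peaks.

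Other genes inside the bounds touched 3 of the RPL22L1 summits outside snoRNA genes and none of the RPL22 summits. In UBAP2L 1 flat RPL22L1 peak with a score of 77 lay at 154220526 to 154220555, where the gene overlaps LTAP1. In UBAP2 2 RPL22L1 peaks with scores of 129 and 269 lay in OSTCP8, a pseudogene of OSTC, which itself held 10 RPL22L1 summits on chromosome 4, so that reads may be divided between the copies. RNU7-36P held no summit.

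Genes for other stress granule proteins and translation regulators were examined as a group of 32, which included G3BP1, the core protein of stress granules, and CAPRIN1, its partner. In each list 30 of the 32 held a summit outside snoRNA genes, against 68.2% of protein-coding genes for RPL22 and 69.7% for RPL22L1. The group was not matched to those genes in length or transcription. The others were LSM14A and PRRC2A, named here after their values were seen, with none in either list. Rows may be missing from the lists used here at these genes, so these zeros, and with them the count of 30, do not show that the genes had no peak. The median was 12.5 RPL22 and 39.5 RPL22L1 summits per gene. UBAP2L with 17 and UBAP2 with 34 lay above the first median, while both lay below the second with 37 and 36. More RPL22 summits than in UBAP2L were held by 11 of the 32 genes and more than in UBAP2 by 5. In the RPL22L1 list it was 17 of the 32 for either gene.

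The log2 ratio of RPL22L1 to RPL22 summits was above 1 in 20 of the 29 genes of the group with at least 10 summits, against the 30.6% of protein-coding genes given above, and below -1 in 0. The median was 1.26, above the 1.08 of UBAP2L and the 0.080 of UBAP2. In lists of equal size 7 of the 29 lay above 1, against 6.64%, and the median was 0.20. The group was not matched to other protein-coding genes in length or summit number, and the part of either in the ratio was not tested. Of the 573 RPL22 peaks of the group 29.5% (25.8 to 33.4%) shared a base with an RPL22L1 peak, against 17.3% of all RPL22 peaks outside snoRNA genes. Of the 1375 RPL22L1 peaks 12.1% (10.5 to 13.99%) shared a base with an RPL22 peak, against 10.6% of that list. The second interval held the share of the list. Both intervals cover counting error only and pool the peaks of all genes of the group as if independent. In the whole RPL22 list shaped peaks overlapped more often than flat ones, 39.1% against 5.59%. The group had a median of 8 shaped RPL22 peaks per gene, and the part of shape in its share was not tested.

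The group was also compared with the members by its highest peaks. Outside snoRNA genes 28 of the 32 genes had a higher RPL22 peak than UBAP2L, and 11 had a higher RPL22L1 peak. For UBAP2 the numbers were 20 and 21. Among the highest RPL22 peaks of the group were those in EIF4G1, a scaffold of translation initiation, with rank 276, and in CAPRIN1 with rank 511. Both overlapped an RPL22L1 peak. Among the highest RPL22L1 peaks were those in DDX6, an RNA helicase of P-bodies, with rank 302, and in PABPC1, a poly(A)-binding protein, with rank 582. The PABPC1 peak overlapped an RPL22 peak and the DDX6 peak did not.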

How the data were processed

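RNA bound to HaloTag fusions was sequenced from HCT116 cells. Per the submitters' processing notes the build was hg38 and the tools included cutadapt 4.8, STAR 2.7.10a, UMI-tools 1.1.5 and MACS3 3.0.0a6, with no parameters and no control named. The authors deposited 1 peak list per library, with a whole-number score per peak, set separately for each library. Depth is unknown.

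Summits (start plus offset, counted from 1) were set against RefSeq gene bounds of GRCh38.p14, which is the same build. Overlap meant at least 1 shared base, and the smallest rank was given to tied scores. Lists of equal size kept RPL22L1 peaks with scores above 98. Where a share carries an interval, it is an exact Clopper-Pearson 95% interval, which treats peaks as independent. With 1 library per group no test was run. The code, checked on peaks of these lists with planted overlaps added, used Python 3.11.15, scipy 1.17.1, numpy 2.4.6, matplotlib 3.10.9 and pandas 2.3.3.

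The members and the list of 32 genes were chosen with earlier results of these data known. Named were, by rule, the 5 highest peaks per gene and list, peaks in held snoRNA genes, overlapping pairs, the 3 genes of most similar summit numbers, and the 3 genes of the list with the highest peaks, of which 1 is not reported here. The alternatives were shaped peaks only, peaks at or above the median score, equal size, merging within 10 bases, any base in the bounds, 50% overlap and summits at most 50 bases apart. Leaving out all other genes in the bounds was added after the data were seen.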

Additional observations from a re-analysis of the deposited data

How the results depend on the processing

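Of 48 alternative values for the summit numbers and shared shares of both genes, 37 stayed within 1.5-fold or within the interval and 11 moved. Without flat peaks the summit numbers were 10 (RPL22) and 13 (RPL22L1) in UBAP2L and 16 and 11 in UBAP2, and the shared share was 10% of the RPL22 peaks of UBAP2L and 27.3% of the RPL22L1 peaks of UBAP2. Dropping peaks below the median score of each list left 10 and 15 summits in UBAP2L. Lists of equal size left 17 RPL22L1 summits in UBAP2L, and the RPL22 numbers could not change there. Requiring 50% of both peaks to overlap gave 11.8% of the RPL22 and 5.41% of the RPL22L1 peaks of UBAP2L. Fewer peaks follow from how these settings are built; the cause of the shifts in share was not tested. Intervals over 17 to 37 peaks are wide, so staying inside them says little. Leaving out replicates was not possible with 1 library per group. The depth of the libraries, the control and the HaloTag-only background limit every value.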

Other observations

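The scores of flat peaks differed between the genes. In UBAP2 the 18 flat RPL22 peaks held 6 distinct scores, and 7, 5 and 3 of them had the scores 21, 33 and 45, the 3 most frequent scores of flat peaks in the whole RPL22 list. In UBAP2L the 7 flat RPL22 peaks had other scores, 13, 14, 30, 48 and 69, of which the most frequent in the list, 13, stood at place 7. In the RPL22L1 list the flat peaks of each gene held 20 distinct scores. There too UBAP2 held the most frequent scores of flat peaks, 115, 132, 98, 81 and 150 at places 1, 2, 3, 4 and 5. Of these UBAP2L held only 98.

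Summits were also counted in the stretches beside each gene, of the same length as the gene and holding 4 or 5 other genes each. UBAP2L had 3.31 RPL22 summits per 10 kb, against 1.56 on the side of lower coordinate and none on the other side. Its RPL22L1 density was 7.21, against 4.29 and 0.779. UBAP2 had 2.67 RPL22 summits per 10 kb, against 2.27 and 0.706, and 2.82 RPL22L1 summits, against 3.14 and 1.41. The RPL22L1 density beside UBAP2 on the side of lower coordinate was thus above that of the gene.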
